A study of Mus musculus with 18 samples.

Results

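The DNA replication and S phase genes are a set of 48 genes that build, fire, and run the replication fork. They were chosen by gene symbol from the 55491 genes of the deposited count table, and all 48 were found and tested in every comparison. RNA was sequenced in bulk from B cells of female BALB/cJ mice, 10 to 12 weeks old at day 44, that had all been sensitized i.p. with 20 μg of the egg allergen ovalbumin (OVA) and 1 mg of alum on days 0 and 14. On days 28 and 42 the mice received, i.v., 100 μL PBS, 100 μg solubilized OVA, or 2.5 mg of OVA NPs, which are polymer particles that carry OVA. B cells were isolated on day 44 from spleen or Peyer's patches by magnetic negative selection, which gave 6 groups of 3 libraries each, labelled as biological replicates, without a statement of whether both tissues came from the same mice. Every group was sensitized, so no group shows the level of these genes in naive mice, and mice that received empty particles were not analysed here.

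A cell copies its genome once per division. In G1, the origin recognition complex with Cdc6 and Cdt1 loads the MCM2-7 helicase on origins. At the start of S phase, Cdc45 and the GINS complex activate the helicase, polymerase alpha and primase lay primers, and polymerases delta and epsilon extend them on the PCNA clamp. B cells of the germinal center, the structure in which activated B cells divide after they meet antigen, are among the fastest dividing cells of the body, whereas most B cells of the spleen are resting. Germinal centers are present in Peyer's patches of healthy mice, where gut antigens arrive continuously. The treatments were compared in B cells from both sites.

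Library totals ran from 14177253 to 30052297 counts, and 3 counts corresponded to 0.0998 to 0.212 CPM, the usual scaling of a count by its library total. The lowest member count in any library was 96 counts. The isolates carried B cell transcripts at a high level. The 7 B cell markers (such as *Ms4a1* and *Cd79a*) summed to 5699 to 9031 CPM per library, against 65.7 to 183 CPM for 8 T cell markers and 54.0 to 267 CPM for 8 monocyte and macrophage markers. Epithelial keratin and adhesion genes summed to 7.15 to 10.1 CPM in spleen and 118 to 501 CPM in Peyer's patches. Erythroid markers summed to 33.3 to 87.7 CPM in spleen and 0.431 to 10.9 CPM in Peyer's patches. Neutrophil markers summed to 25.6 to 141 CPM in spleen and 0.431 to 16.5 CPM in Peyer's patches. Levels below are CPM after TMM scaling of all 18 libraries, listed in the order of replicates 1, 2, and 3. Differentially expressed genes (DEGs) had a Benjamini-Hochberg adjusted P under 0.05 in edgeR's quasi-likelihood test and an absolute log2 fold change above 0.25.

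In spleen, both forms of OVA were followed by higher levels of the replication genes than PBS. *Clspn* (ENSMUSG00000042489, chr4:126556935-126593903), which encodes claspin, a fork protein needed for checkpoint signaling, was at 15.8, 14.1, and 16.02 CPM in PBS controls, 44.2, 40.7, and 46.8 after soluble OVA, and 46.5, 39.9, and 33.97 after OVA NP. The treated libraries did not overlap the PBS controls, and the 2 forms of OVA overlapped each other. *Clspn* had the highest log2 fold change of the 48 genes, 1.52 ± 0.09 (SE, adjusted P = 1.08e-07) after soluble OVA and 1.40 ± 0.11 (SE, adjusted P = 9.86e-06) after OVA NP, or 2.88-fold and 2.63-fold. After OVA NP, 39 of the 48 genes were higher and 0 lower, whereas 8.6% of all tested genes were called higher. The median log2 fold change of the 48 genes was 0.60, and that of all tested genes was 0.00062. After soluble OVA, 44 of the 48 were higher and 0 lower, against 10.5% of all tested genes, with a median log2 fold change of 0.67. All 3 treated libraries were above all 3 PBS controls for 46 genes after OVA NP and for 46 after soluble OVA, against 18.7% and 19.1% of all tested genes. The exceptions were *Cdt1* and *Chaf1b* after OVA NP and *Pold1* and *Pold3* after soluble OVA. Both comparisons use the same 3 PBS libraries and are not independent of each other. In bulk RNA, more dividing cells in the isolate and more of these transcripts per cell cannot be told apart.

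In Peyer's patches, the forms of OVA parted. *Clspn* was at 81.1, 61.2, and 63.5 CPM in PBS controls, 159.6, 162, and 158 after soluble OVA, and 48.1, 76.3, and 75.1 after OVA NP. The soluble OVA libraries stood above all others, and the OVA NP libraries lay within or below the range of the PBS controls. After soluble OVA, 45 of the 48 genes were higher than in PBS controls and 0 were lower, with a median log2 fold change of 0.85, whereas 13.5% of all tested genes were called higher. The soluble OVA libraries did not overlap the PBS controls for 47 genes, against 22.1% of all tested genes. After OVA NP, 0 of the 48 genes passed the test against PBS, and 0% of all tested genes did. The median log2 fold change was -0.15, with 43 of the 48 estimates below 0 and a range from -0.39 for *Rpa2* to 0.09 for *Rpa3*. At an unadjusted P under 0.05, 2 genes were lower (*Rpa2* and *Fen1*), and DESeq2 also called 0 of the 48. Over all genes, 1573 of 15798 had an unadjusted P under 0.05, and DESeq2 called 96 higher and 54 lower. The 3 OVA NP libraries lay below all 3 PBS controls for *Rpa2* and *Gins3*, 2 of 48 genes, against 10.5% of all tested genes.

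Compared directly in Peyer's patches, OVA NP left 47 of the 48 genes lower than soluble OVA, whereas 16.3% of all tested genes were called lower. The median log2 fold change was -1.02, from -1.42 for *Gins1* to -0.32 for *Pold3*. For all 48 genes, every OVA NP library was below every soluble OVA library, against 25.6% of all tested genes. The gene that did not pass the test was *Cdt1* (-0.35 ± 0.12, adjusted P = 0.0617). In spleen, 0 of the 48 genes differed between OVA NP and soluble OVA, against 0.238% of all tested genes in either direction, and DESeq2 also called 0. At an unadjusted P under 0.05, 1 gene was lower, *Rfc2*, which was also the only gene with 3 OVA NP libraries below the 3 soluble OVA libraries, against 7.58% of all tested genes. The median log2 fold change was -0.07 with a median SE of 0.0957. The widest 95% intervals were those of *Chaf1b* (-0.60 to 0.46) and *Cdc6* (-0.33 to 0.55).

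**Figure D1:**
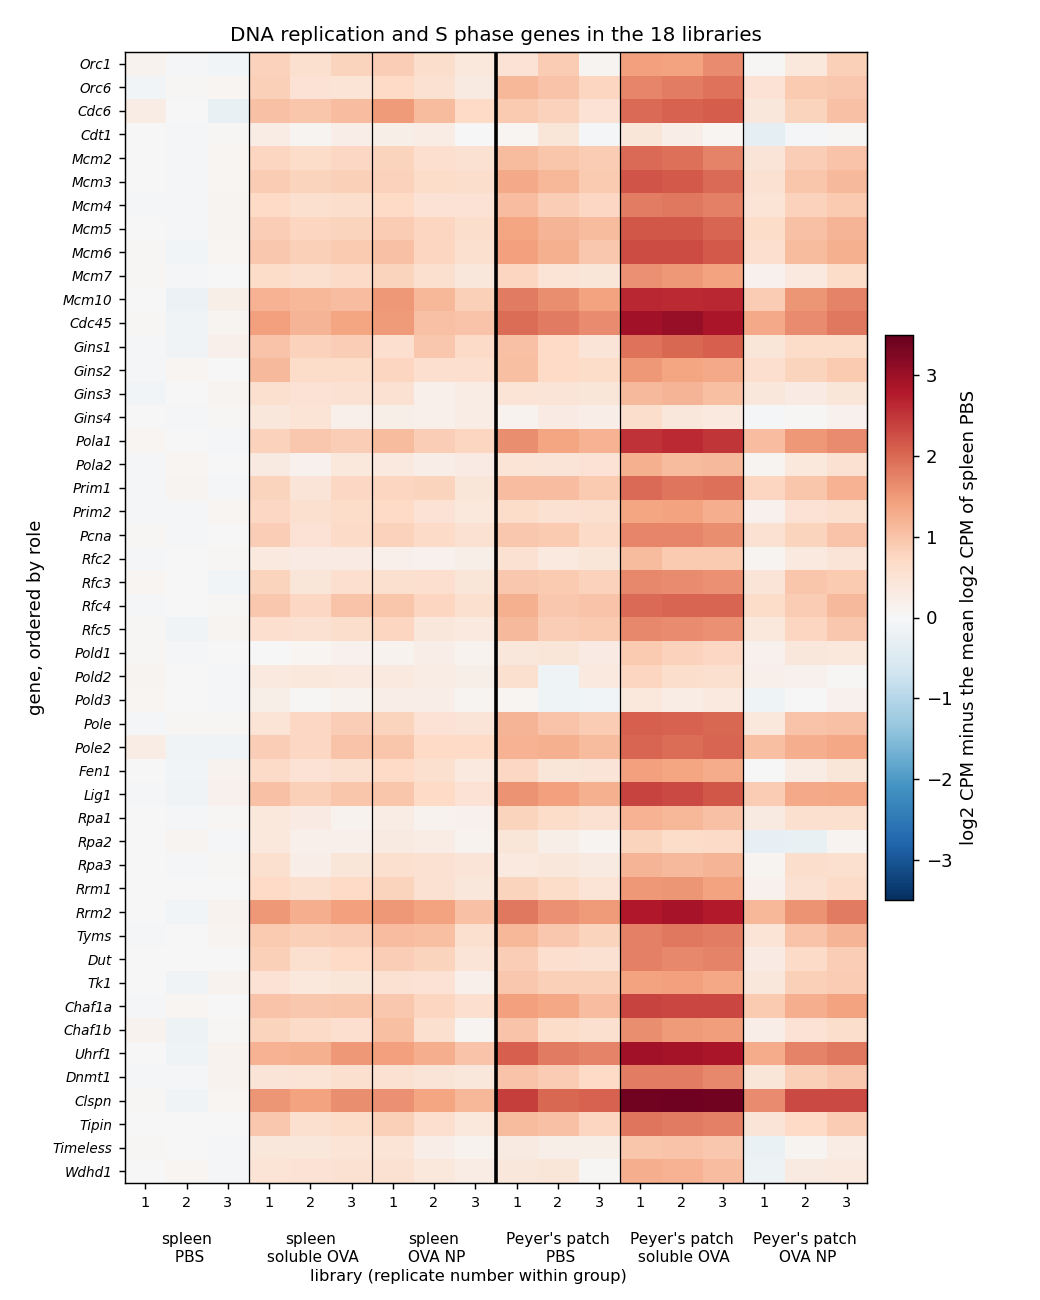
Heat map of log2 CPM for the 48 DNA replication and S phase genes (rows, ordered by role) in the 18 libraries (columns), each value minus the mean of the 3 spleen PBS libraries. Soluble OVA libraries of Peyer's patch are the darkest block, *Clspn*, *Cdc45*, *Uhrf1*, and *Rrm2* are the darkest rows, and *Cdt1*, *Pold1*, and *Pold3* stay pale in spleen.

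The tissues also differed in sensitized mice that received PBS. In these controls, 43 of the 48 genes were higher in Peyer's patches than in spleen and 0 were lower, with a median log2 difference of 0.88, against 25.5% of all tested genes called higher. The groups did not overlap for 43 genes, against 30.6% of all tested genes. The 5 genes that did not pass were *Cdt1*, *Orc1*, *Gins4*, *Pold2*, and *Pold3*. *Gins4* had an adjusted P of 0.0460 but a log2 difference of 0.22, below the cutoff. The highest difference was again that of *Clspn*, 2.19 ± 0.12 (SE, adjusted P = 1.26e-06), or 4.56-fold.

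The effect of OVA NP differed between the tissues for 28 of the 48 genes by a test of the interaction of tissue and treatment over 12 libraries, and all 28 had the lower estimate in Peyer's patches. Among all tested genes, 3.54% were called in that direction. The interaction is the log2 fold change in Peyer's patches minus that in spleen, and its median over the 48 genes was -0.73. It ranged from -1.46 ± 0.20 (SE, adjusted P = 0.00471) for *Uhrf1*, which guides DNA methylation onto new strands, to -0.12 ± 0.11 for *Pold3* (adjusted P = 0.606). This count was less stable than those between groups. It ran from 11 to 32 when single libraries were left out. It was 11 without spleen OVA NP replicate 1 or Peyer's patch PBS replicate 1, and 12, 14, and 16 without spleen PBS replicates 1, 2, and 3. It was 15 without spleen OVA NP replicate 2 and 17 without Peyer's patch OVA NP replicate 2. The effect of soluble OVA differed between tissues for 2 genes, both with the higher estimate in Peyer's patches, against 1.77% of all tested genes called higher. These were *Pola2* (0.39 ± 0.10 SE, adjusted P = 0.0265) and *Pold1* (0.35 ± 0.10 SE, adjusted P = 0.0384). Their count ran from 0 to 5 when single libraries were left out, with 0 without spleen PBS replicate 2 or spleen soluble OVA replicate 2.

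**Figure D2:**
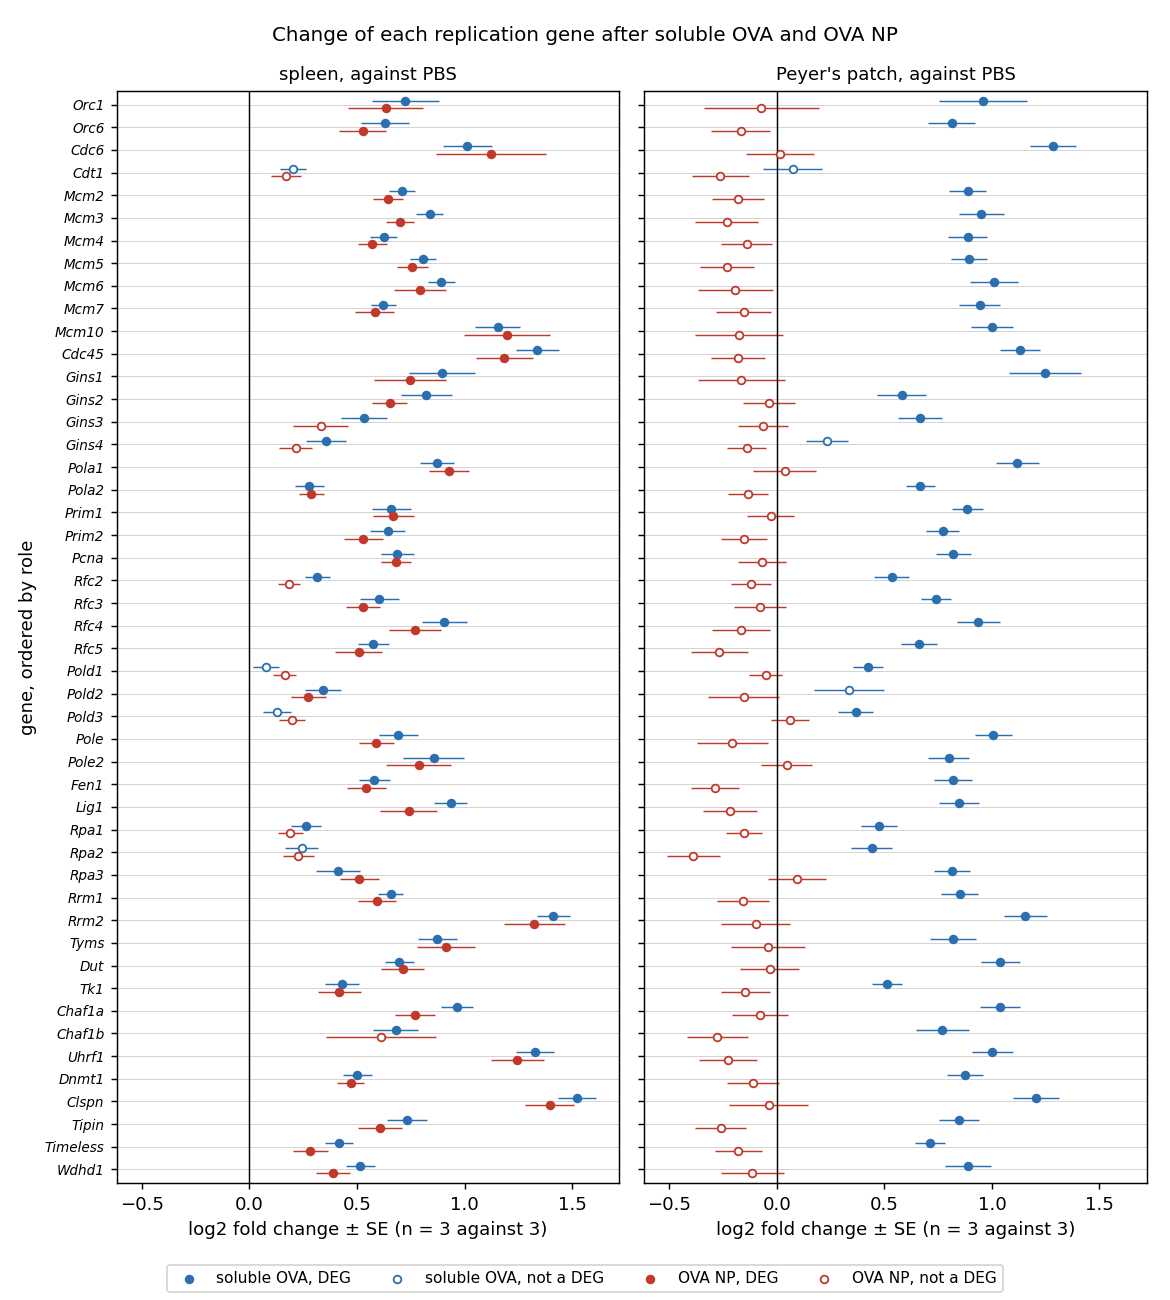
Log2 fold change against PBS ± SE for each of the 48 genes after soluble OVA (blue) and OVA NP (red) in spleen (left) and Peyer's patch (right), 3 libraries against 3, with filled points for DEGs. In spleen the 2 colors lie side by side to the right of 0 for most genes, and in Peyer's patch the soluble OVA points lie to the right of 0 and the OVA NP points run from -0.39 to 0.09.

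Sequence around the starts of the genes was examined for short motifs. E2F transcription factors drive many genes of the G1 to S transition, and mitotic genes carry different elements, the CHR (TTTGAA) and the NF-Y box (CCAAT). RefSeq promoter entries (GRCm38.p6, 250 bases before to 50 bases after each annotated start) matched 40 of the 48 genes. *Rfc2*, *Pole*, *Tipin*, *Mcm4*, *Gins2*, *Gins1*, *Prim2*, and *Gins4* had no entry. An E2F motif was searched on both strands as TTTCCCGC, TTTCGCGC, TTTGCCGC, or TTTGGCGC. It was found in 17 of the 40 (42.5%), against 704 of all 27025 genes with an entry (2.6%) and 2.26% of all 32851 promoters. Those 27025 genes include genes that were not tested in B cells. The NF-Y box was found in 24 of the 40 (60%), against 41.1% of all genes, and the CHR in 6 (15%), against 20.2%. In a list of 20 mitosis genes, of which 17 had an entry, the E2F motif was found in 1 and the CHR in 12 (70.6%). A match is a run of letters and not a measured binding site, and no factor binding was measured.

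An E2F motif lay wholly before a RefSeq start in 10 of the 17 genes. A gene can have several starts, and for 7 of these 10 the motif lay past the first base of the gene in GENCODE. The upstream sequences of the other 3 genes, *Mcm5*, *Mcm6*, and *Pola1*, are shown because their motif, marked in capitals, lies before the gene in both annotations. Each is written 5′ to 3′ on the strand of its gene. In *Mcm5* and *Mcm6* the capitals cover 2 overlapping matches, on opposite strands, and *Mcm6* has another match nearer to its start that is not shown. The stretches lie at chr8:75109316-75109407, plus strand (*Mcm5*), chr1:128359764-128359855, minus strand (*Mcm6*), and chrX:93632246-93632333, minus strand (*Pola1*).
Mcm5: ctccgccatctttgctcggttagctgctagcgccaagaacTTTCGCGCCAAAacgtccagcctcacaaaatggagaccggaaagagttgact
Mcm6: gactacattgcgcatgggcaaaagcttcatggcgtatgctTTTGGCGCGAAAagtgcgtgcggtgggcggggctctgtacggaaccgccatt
Pola1: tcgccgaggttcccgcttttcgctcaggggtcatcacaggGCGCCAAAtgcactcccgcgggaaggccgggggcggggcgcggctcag

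The medians of genes with and without a match lay close together. The 17 with an E2F motif had a median log2 fold change of 0.70 after OVA NP in spleen, and the 23 without one had 0.59. In Peyer's patches after soluble OVA the medians were 0.89 and 0.82. These medians describe the lists, and the difference was not tested.

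**Figure D3:**
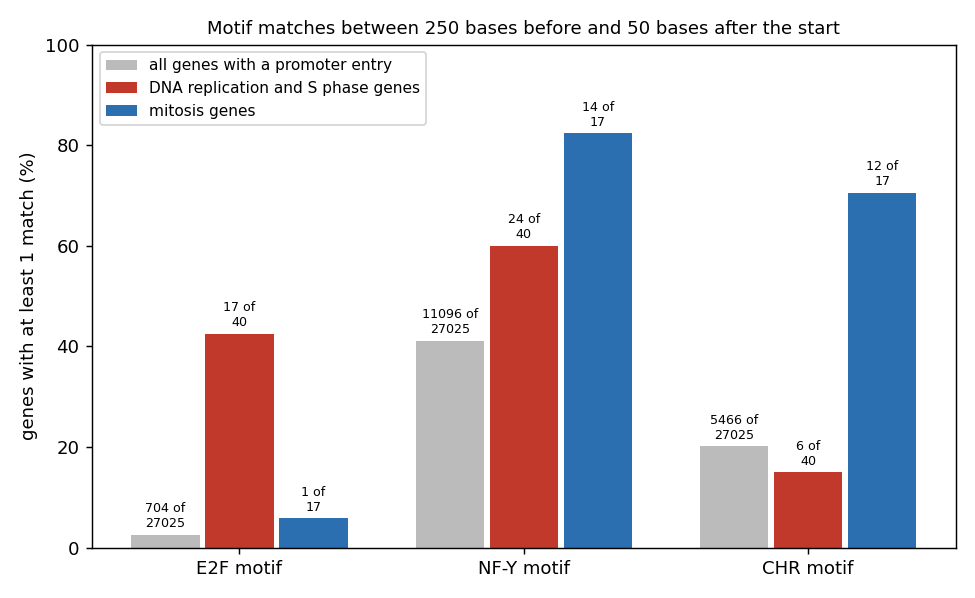
Share of genes (%) with at least 1 match to the E2F motif, the NF-Y motif, and the CHR motif between 250 bases before and 50 bases after an annotated start, for all genes with a RefSeq promoter entry (grey), the DNA replication and S phase genes (red), and the mitosis genes (blue), with the counts above the bars. The E2F motif was found in 42.5% of the replication genes and the CHR in 70.6% of the mitosis genes.

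Origin licensing genes mark the step that ends with G1. *Cdc6* (ENSMUSG00000017499, chr11:98907801-98923940), the loader that bridges the origin recognition complex and the helicase, was at 18.3, 15.2, and 12.9 CPM in PBS controls, 31.1, 30.01, and 32.5 after soluble OVA, and 43.4, 33.1, and 24.7 after OVA NP in spleen. *Cdc6* in Peyer's patches was at 29, 26.7, and 21.8 CPM in PBS controls, 60.3, 63.7, and 66.3 after soluble OVA, and 20.2, 26.2, and 31.4 after OVA NP. Treated spleen libraries were all above their controls, and in Peyer's patches the soluble OVA libraries were above theirs and the OVA NP libraries overlapped them. *Cdc6* had the highest log2 fold change after soluble OVA in Peyer's patches, 1.28 ± 0.11 (SE, adjusted P = 9.16e-05). In spleen it changed by 1.12 ± 0.26 (SE, adjusted P = 0.0377) after OVA NP and by 1.01 ± 0.11 (SE, adjusted P = 3.02e-05) after soluble OVA. *Orc1*, the largest subunit of the origin recognition complex, was at 5.12, 4.56, and 4.34 CPM in PBS controls, 8.21, 6.85, and 8.06 after soluble OVA, and 8.54, 7.15, and 6.06 after OVA NP in spleen and was higher after OVA NP (0.63 ± 0.17 SE, adjusted P = 0.0191). *Orc1* in Peyer's patches was at 6.67, 8.65, and 5.03 CPM in PBS controls, 12.5, 12.4, and 14.7 after soluble OVA, and 4.83, 5.98, and 8.34 after OVA NP. It was higher after soluble OVA (0.96 ± 0.21 SE, adjusted P = 0.00814), and the OVA NP and PBS libraries overlapped. *Orc6*, another subunit, was higher in both spleen comparisons with PBS (0.53 and 0.63) and after soluble OVA in Peyer's patches (0.81).

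*Cdt1*, which delivers the helicase to origins and whose protein is destroyed as S phase begins, gave few differences. Its levels were 76.1, 73.1, and 76.97 CPM in PBS controls, 90.6, 80.9, and 88.2 after soluble OVA, and 87.4, 90.9, and 75.4 after OVA NP in spleen. *Cdt1* in Peyer's patches was at 79.6, 101.7, and 71.5 CPM in PBS controls, 101.1, 88.03, and 78.6 after soluble OVA, and 59.4, 72.5, and 77.1 after OVA NP. The groups overlapped in most comparisons, and *Cdt1* was the only member that was a DEG in none of the 7 comparisons between groups. Its log2 fold change after soluble OVA in Peyer's patches was 0.07 ± 0.14, with a 95% interval of -0.24 to 0.39.

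The 6 genes *Mcm2* to *Mcm7* encode the ring that unwinds DNA. *Mcm5* (ENSMUSG00000005410, chr8:75109569-75128439) was at 116, 112, and 124 CPM in PBS controls, 213, 199, and 203 after soluble OVA, and 217, 197, and 179 after OVA NP in spleen. *Mcm5* in Peyer's patches was at 303, 265, and 251 CPM in PBS controls, 526, 525, and 483 after soluble OVA, and 184, 240.2, and 268 after OVA NP. All treated spleen libraries were above the controls, and the OVA NP libraries of Peyer's patch were below all soluble OVA libraries by a wide margin. *Mcm5* changed by 0.76 ± 0.07 (SE, adjusted P = 2.16e-05) after OVA NP and 0.81 ± 0.06 (SE, adjusted P = 7.37e-07) after soluble OVA in spleen. *Mcm5* changed by 0.89 ± 0.08 (SE, adjusted P = 0.000138) after soluble OVA in Peyer's patches and was lower after OVA NP than after soluble OVA by a log2 fold change of -1.14 ± 0.12 (SE, adjusted P = 0.000473). *Mcm2* was at 107, 100.8, and 112 CPM in PBS controls, 179, 167, and 175 after soluble OVA, and 182, 161, and 153 after OVA NP in spleen, where it rose after OVA NP (0.64 ± 0.07 SE, adjusted P = 3.72e-05). *Mcm2* in Peyer's patches was at 228, 209.9, and 196 CPM in PBS controls, 420.4, 407, and 355 after soluble OVA, and 147, 195, and 214 after OVA NP, and it rose after soluble OVA (0.89 ± 0.09 SE, adjusted P = 0.000159). *Mcm3*, *Mcm4*, *Mcm6*, and *Mcm7* were also DEGs in these comparisons. All 6 genes were higher after either form of OVA in spleen, higher after soluble OVA in Peyer's patches, and lower after OVA NP than after soluble OVA there, and all 6 passed the interaction test for OVA NP.

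Of the 6 helicase activation genes, 4 were higher after OVA NP in spleen and all 6 after soluble OVA. *Cdc45* (ENSMUSG00000000028, chr16:18780447-18811987), the cofactor that turns the MCM ring into the active helicase, was at 11.4, 10.2, and 11.8 CPM in PBS controls, 30.3, 25.3, and 28.8 after soluble OVA, and 31.02, 22.9, and 22.1 after OVA NP in spleen. *Cdc45* in Peyer's patches was at 42.9, 39.6, and 35.2 CPM in PBS controls, 85.9, 93.04, and 80.9 after soluble OVA, and 28.02, 34.98, and 40.2 after OVA NP. It was among the most changed members, at 1.18 ± 0.13 (SE, adjusted P = 7e-05) after OVA NP in spleen and -1.32 ± 0.12 (SE, adjusted P = 0.000320) for OVA NP against soluble OVA in Peyer's patches. *Mcm10*, which helps fire the loaded helicase, was at 14.4, 12.2, and 16.3 CPM in PBS controls, 33.2, 32.1, and 29.98 after soluble OVA, and 40.8, 32.1, and 25.3 after OVA NP in spleen. *Mcm10* in Peyer's patches was at 49.7, 43.6, and 37.4 CPM in PBS controls, 88.3, 86.9, and 88.3 after soluble OVA, and 26.2, 41.3, and 47.7 after OVA NP, with OVA NP replicate 1 far below the other two. Its log2 fold change was 1.20 ± 0.20 (SE, adjusted P = 0.00745) after OVA NP in spleen and 1.00 ± 0.10 (SE, adjusted P = 0.000165) after soluble OVA in Peyer's patches.

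The 4 GINS subunits form 1 complex, and 2 of them were DEGs after OVA NP in spleen. *Gins1* had low levels, 4.29, 4.03, and 5.02 CPM in PBS controls, 8.90, 7.78, and 8.06 after soluble OVA, and 6.71, 8.49, and 7.09 after OVA NP in spleen. *Gins1* in Peyer's patches was at 9.04, 7.18, and 6.05 CPM in PBS controls, 16.6, 17.9, and 18.8 after soluble OVA, and 5.89, 6.96, and 6.88 after OVA NP. All its soluble OVA libraries there were above the rest, and its log2 fold change for OVA NP against soluble OVA, -1.42 ± 0.13 (SE, adjusted P = 0.000322), was the lowest of the 48. *Gins2* was at 21.9, 24.2, and 23.1 CPM in PBS controls, 50.3, 35.7, and 35.7 after soluble OVA, and 39.05, 34.8, and 34.5 after OVA NP in spleen, and was higher after OVA NP by 0.65 ± 0.08 (SE, adjusted P = 6.64e-05). *Gins2* in Peyer's patches was at 47.8, 37.5, and 36.2 CPM in PBS controls, 66.2, 59.6, and 57.8 after soluble OVA, and 34.7, 39.6, and 43.6 after OVA NP, and was higher after soluble OVA by 0.58 ± 0.11 (SE, adjusted P = 0.00505). Of the annotated exon bases of *Gins2*, 67.3% overlap those of *Gse1* on the opposite strand, and the strand setting of the counting is not given in the sources used here. *Gins3* and *Gins4* missed the test after OVA NP in spleen, with log2 fold changes of 0.33 ± 0.13 (SE, adjusted P = 0.0813) and 0.21 ± 0.08 (SE, adjusted P = 0.0620). *Gins4* also missed it after soluble OVA in Peyer's patches (0.23 ± 0.10 SE, adjusted P = 0.102).

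All 4 primer synthesis genes were higher after either form of OVA in spleen and after soluble OVA in Peyer's patches. *Pola1* (ENSMUSG00000006678, chrX:93304767-93632155), the catalytic subunit of polymerase alpha, was at 23.9, 22.6, and 22.4 CPM in PBS controls, 40.2, 44.5, and 41.4 after soluble OVA, and 49.9, 41.7, and 38.96 after OVA NP in spleen. *Pola1* in Peyer's patches was at 70.5, 59.7, and 53.2 CPM in PBS controls, 131, 140.3, and 130.3 after soluble OVA, and 48.9, 65.7, and 72.6 after OVA NP. Controls and treated spleen libraries were clearly apart, and *Pola1* changed by 0.93 ± 0.09 (SE, adjusted P = 1.68e-05) after OVA NP. *Pola1* changed by 1.12 ± 0.10 (SE, adjusted P = 0.000126) after soluble OVA in Peyer's patches. *Prim1*, the small subunit of primase, which makes the RNA primer, was at 25.6, 28.2, and 25.4 CPM in PBS controls, 45.1, 36.2, and 43.5 after soluble OVA, and 44.6, 45.6, and 35.6 after OVA NP in spleen and changed by 0.67 ± 0.10 (SE, adjusted P = 0.000342) after OVA NP. *Prim1* in Peyer's patches was at 55.7, 56.1, and 49.9 CPM in PBS controls, 105, 96.02, and 100.3 after soluble OVA, and 44.1, 51.4, and 61.8 after OVA NP, a change of 0.89 ± 0.07 (SE, adjusted P = 9.16e-05) after soluble OVA. *Pola2* and *Prim2*, the partner subunits, were DEGs in the same comparisons, with *Pola2* showing the smaller changes in spleen (0.29 after OVA NP and 0.28 after soluble OVA).

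Of the 5 clamp and clamp loader genes, 4 were higher after OVA NP in spleen and all 5 after soluble OVA in either tissue. *Pcna* (ENSMUSG00000027342, chr2:132249162-132253314), the sliding clamp that holds the polymerases on DNA, was at 144, 133, and 140.3 CPM in PBS controls, 251, 199, and 222 after soluble OVA, and 243, 221, and 202 after OVA NP in spleen. *Pcna* in Peyer's patches was at 267, 265, and 222 CPM in PBS controls, 455, 457, and 429 after soluble OVA, and 199, 237, and 276 after OVA NP. Per kilobase of exon, *Pcna* had the highest level of the 48 genes in every group, from 57.9 CPM per kb in spleen PBS controls to 186 in Peyer's patches after soluble OVA. *Orc1* had the lowest in spleen PBS controls, 1.34 CPM per kb. *Pcna* changed by 0.68 ± 0.07 (SE, adjusted P = 1.91e-05) after OVA NP and 0.69 ± 0.07 (SE, adjusted P = 2.16e-05) after soluble OVA in spleen. *Pcna* changed by 0.82 ± 0.08 (SE, adjusted P = 0.000176) after soluble OVA in Peyer's patches and by -0.90 ± 0.11 (SE, adjusted P = 0.000644) for OVA NP against soluble OVA. Replication factor C opens the clamp and loads it. Of its small subunits, *Rfc3* was at 26.8, 25.9, and 24.03 CPM in PBS controls, 43.5, 34.4, and 38.3 after soluble OVA, and 37.8, 38.5, and 33.97 after OVA NP in spleen, a change of 0.53 ± 0.08 (SE, adjusted P = 0.000331) after OVA NP. *Rfc3* in Peyer's patches was at 49.1, 47.9, and 44.98 CPM in PBS controls, 81.5, 80.7, and 76.8 after soluble OVA, and 35.1, 50.1, and 48.4 after OVA NP, a change of 0.74 ± 0.07 (SE, adjusted P = 0.000132) after soluble OVA. *Rfc4* and *Rfc5* were also higher in spleen after OVA NP (0.77 and 0.51), and *Rfc2*, at 0.18 ± 0.05, was below the fold-change cutoff. Parts of *Rfc2*, *Rfc4*, and *Rfc5* exons (10.7% to 15.1%) overlap opposite-strand genes.

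The 5 genes of polymerases delta and epsilon had the lowest median log2 fold change of the 10 roles after OVA NP in spleen, 0.27, and 3 of the 5 were higher. *Pold1* (ENSMUSG00000038644, chr7:44532746-44548849), the catalytic subunit of polymerase delta, was at 159, 149, and 158 CPM in PBS controls, 156, 164, and 172 after soluble OVA, and 169, 181, and 171 after OVA NP in spleen. *Pold1* in Peyer's patches was at 205, 207, and 191 CPM in PBS controls, 291, 270.4, and 255 after soluble OVA, and 172, 205, and 199.7 after OVA NP. Its spleen groups lay close together, and its log2 fold change was the lowest of the 48 genes there, 0.16 ± 0.05 (SE, adjusted P = 0.0417) after OVA NP and 0.08 ± 0.06 (SE, adjusted P = 0.423) after soluble OVA. *Pold1* changed by 0.42 ± 0.07 (SE, adjusted P = 0.00239) after soluble OVA in Peyer's patches. *Pole*, the catalytic subunit of polymerase epsilon, was at 31.8, 34.2, and 34.5 CPM in PBS controls, 46.8, 55.3, and 60.5 after soluble OVA, and 57, 47.8, and 46.1 after OVA NP in spleen and changed by 0.59 ± 0.08 (SE, adjusted P = 0.000233) after OVA NP. *Pole* in Peyer's patches was at 76.96, 67.3, and 61.8 CPM in PBS controls, 143, 141, and 134 after soluble OVA, and 43.02, 66.7, and 67.9 after OVA NP, a change of 1.01 ± 0.09 (SE, adjusted P = 0.000104) after soluble OVA. *Pole2*, its second subunit, changed by a log2 value of 0.79 after OVA NP in spleen. *Pold2*, an accessory subunit of polymerase delta, passed in spleen after both forms of OVA (0.27 and 0.34) and did not in Peyer's patches after soluble OVA (0.33 ± 0.16 SE, adjusted P = 0.172). *Pold3*, another accessory subunit, was a DEG in neither spleen comparison with PBS (0.20 ± 0.06 and 0.13 ± 0.06). It was the member with the lowest tissue difference in PBS controls, -0.03 ± 0.08.

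Lagging strands are joined from Okazaki fragments by a flap nuclease and a ligase. *Fen1*, the flap nuclease, was at 47.4, 44.8, and 51.9 CPM in PBS controls, 75.9, 68.1, and 70.9 after soluble OVA, and 77.2, 71.2, and 61.1 after OVA NP in spleen, a change of 0.54 ± 0.09 (SE, adjusted P = 0.00154) after OVA NP. *Fen1* in Peyer's patches was at 78.6, 64.4, and 65.5 CPM in PBS controls, 128, 124, and 119 after soluble OVA, and 47.98, 57.2, and 64.5 after OVA NP. There, 2 of the 3 OVA NP libraries lay below all PBS controls, and the log2 fold change was -0.29 ± 0.11 with a 95% interval of -0.54 to -0.03. *Lig1* (ENSMUSG00000056394, chr7:13277283-13311433), the ligase, was at 47.4, 44.8, and 53.9 CPM in PBS controls, 98.1, 86.2, and 94.4 after soluble OVA, and 94.8, 79.4, and 68.98 after OVA NP in spleen, a change of 0.74 ± 0.13 (SE, adjusted P = 0.00965) after OVA NP. *Lig1* in Peyer's patches was at 144, 132, and 115 CPM in PBS controls, 250.1, 241, and 218 after soluble OVA, and 89.1, 121, and 124 after OVA NP. Its change after soluble OVA there was 0.85 ± 0.09 (SE, adjusted P = 0.000278), and its tissue difference in PBS controls was 1.44 ± 0.09 (SE, adjusted P = 2.71e-06).

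Replication protein A coats single-stranded DNA as a trimer, and 1 of its 3 genes was a DEG after OVA NP in spleen. *Rpa1*, the large subunit, was at 139, 132, and 143 CPM in PBS controls, 178, 168, and 150.0 after soluble OVA, and 166, 150.7, and 154 after OVA NP in spleen. *Rpa1* in Peyer's patches was at 237, 213, and 199.7 CPM in PBS controls, 323, 306, and 283 after soluble OVA, and 173, 203, and 205 after OVA NP. It passed after soluble OVA in both tissues (0.26 ± 0.07 SE, adjusted P = 0.0139, and 0.48 ± 0.08 SE, adjusted P = 0.00290), and its change after OVA NP in spleen, 0.19 ± 0.06, was below the cutoff. *Rpa3*, the smallest subunit, was at 14.5, 14.1, and 14.8 CPM in PBS controls, 21.4, 16.9, and 19.3 after soluble OVA, and 21.3, 20.9, and 19.6 after OVA NP in spleen and changed by 0.51 ± 0.09 (SE, adjusted P = 0.00120) after OVA NP. *Rpa3* in Peyer's patches was at 18.3, 19.1, and 18.1 CPM in PBS controls, 33.1, 32.1, and 33.1 after soluble OVA, and 15.5, 22.1, and 21.2 after OVA NP, with a change after soluble OVA of 0.81 ± 0.08 (SE, adjusted P = 0.000216). *Rpa2*, the middle subunit, missed the cutoff in spleen after OVA NP (0.23 ± 0.07) and soluble OVA (0.24 ± 0.08). *Rpa2* in Peyer's patches was at 50.05, 42.9, and 39.9 CPM in PBS controls, 64.2, 58.05, and 59.6 after soluble OVA, and 30.2, 30.8, and 39.7 after OVA NP. All OVA NP libraries were below the PBS controls, and the log2 fold change of -0.39 ± 0.12 was the lowest of the 48 genes in that comparison but did not pass the test (adjusted P = 0.382).

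Nucleotide supply genes provide the building blocks. *Rrm2* (ENSMUSG00000020649, chr12:24708241-24714146), the regulated subunit of ribonucleotide reductase, was at 31.99, 29.9, and 35.02 CPM in PBS controls, 92.2, 78.5, and 86.4 after soluble OVA, and 91.9, 85.03, and 65.2 after OVA NP in spleen. *Rrm2* in Peyer's patches was at 117, 97.5, and 90.1 CPM in PBS controls, 225, 237, and 222 after soluble OVA, and 71.8, 96.5, and 114 after OVA NP. All treated spleen libraries were above all controls, and *Rrm2* changed by 1.32 ± 0.14 (SE, adjusted P = 0.00120) after OVA NP and 1.41 ± 0.08 (SE, adjusted P = 8.89e-08) after soluble OVA. *Rrm2* changed by 1.16 ± 0.10 (SE, adjusted P = 9.56e-05) after soluble OVA in Peyer's patches. *Rrm1*, the constitutive subunit, changed by 0.59 and 0.66 in spleen after OVA NP and soluble OVA, and both were DEGs.

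The 3 thymidine-related genes were higher in the same comparisons. *Tyms*, thymidylate synthase, was at 12.1, 12.6, and 13.6 CPM in PBS controls, 24, 22.9, and 23.3 after soluble OVA, and 26.8, 26.7, and 18.7 after OVA NP in spleen, a change of 0.91 ± 0.14 (SE, adjusted P = 0.000601) after OVA NP. *Tyms* in Peyer's patches was at 28.8, 24.5, and 21.7 CPM in PBS controls, 43.4, 45.6, and 44.3 after soluble OVA, and 17.8, 25.6, and 29.1 after OVA NP, a change of 0.82 ± 0.11 (SE, adjusted P = 0.000699) after soluble OVA. The salvage kinase *Tk1* was at 33.2, 30.7, and 36.5 CPM in PBS controls, 47.4, 42.8, and 44.7 after soluble OVA, and 48.1, 47.8, and 38.01 after OVA NP in spleen, a change of 0.42 ± 0.10 (SE, adjusted P = 0.0125) after OVA NP. *Tk1* in Peyer's patches was at 64.6, 59.6, and 59.9 CPM in PBS controls, 89.1, 90.8, and 84.6 after soluble OVA, and 43.9, 59.2, and 62.1 after OVA NP, a change of 0.51 ± 0.07 (SE, adjusted P = 0.000839) after soluble OVA. *Dut*, which removes dUTP before it can enter DNA, was at 58.05, 57.1, and 56.8 CPM in PBS controls, 101.5, 84.6, and 92.1 after soluble OVA, and 105, 97.5, and 78.5 after OVA NP in spleen, a change of 0.71 ± 0.10 (SE, adjusted P = 0.00134) after OVA NP. *Dut* in Peyer's patches was at 104, 86.9, and 82.3 CPM in PBS controls, 193, 185, and 189 after soluble OVA, and 70.5, 91.6, and 104 after OVA NP, a change of 1.04 ± 0.09 (SE, adjusted P = 0.000113) after soluble OVA. For these 3 genes the treated spleen libraries were above all controls, and the OVA NP and PBS libraries of Peyer's patch overlapped.

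Newly copied DNA is packed into chromatin and methylated. *Uhrf1* (ENSMUSG00000001228, chr17:56303321-56323486), which binds hemimethylated DNA, was at 47.04, 41.9, and 50.5 CPM in PBS controls, 108, 109.7, and 132 after soluble OVA, and 124, 112, and 93.1 after OVA NP in spleen. *Uhrf1* in Peyer's patches was at 196, 164, and 154 CPM in PBS controls, 356, 350.3, and 333 after soluble OVA, and 115, 155, and 167 after OVA NP. It changed by 1.24 ± 0.12 (SE, adjusted P = 0.000657) after OVA NP in spleen and by 1.00 ± 0.09 (SE, adjusted P = 0.000135) after soluble OVA in Peyer's patches, where its log2 fold change after OVA NP was -0.23 ± 0.14 (95% interval -0.54 to 0.08). *Dnmt1*, the maintenance methyltransferase it recruits, was at 197, 192, and 218 CPM in PBS controls, 277, 279, and 300.3 after soluble OVA, and 292, 276, and 268 after OVA NP in spleen and changed by 0.47 ± 0.06 (SE, adjusted P = 0.000105) after OVA NP. *Dnmt1* in Peyer's patches was at 403, 374, and 330.0 CPM in PBS controls, 705, 701, and 643 after soluble OVA, and 272, 362, and 384 after OVA NP, a change of 0.88 ± 0.08 (SE, adjusted P = 0.000158) after soluble OVA. *Chaf1a*, the large subunit of the histone chaperone CAF-1, was at 23.1, 25.6, and 23.8 CPM in PBS controls, 48, 46.3, and 47.2 after soluble OVA, and 46.3, 40.95, and 36.2 after OVA NP in spleen and changed by 0.77 ± 0.09 (SE, adjusted P = 6.59e-05) after OVA NP. *Chaf1a* in Peyer's patches was at 65.96, 61.8, and 51.2 CPM in PBS controls, 126, 122, and 122 after soluble OVA, and 45.5, 58.2, and 64.7 after OVA NP, a change of 1.04 ± 0.09 (SE, adjusted P = 0.000112) after soluble OVA. Annotated exons of *Chaf1a* overlap those of *Ubxn6* on the opposite strand over 52.5% of their bases. *Chaf1b*, its partner, was at 28.3, 20.1, and 14.5 CPM after OVA NP in spleen against 14.9, 12.1, and 14.1 CPM in PBS controls. The groups overlapped, and *Chaf1b* did not pass the test (0.61 ± 0.26 SE, adjusted P = 0.166).

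Beside *Clspn*, described above, *Timeless* stabilizes stalled forks with its partner *Tipin*. *Timeless* was at 47.2, 45.9, and 43.98 CPM in PBS controls, 59.8, 59.9, and 63.2 after soluble OVA, and 63.1, 53.2, and 50.1 after OVA NP in spleen, a change of 0.28 ± 0.08 (SE, adjusted P = 0.0269) after OVA NP. *Timeless* in Peyer's patches was at 57.1, 52.7, and 52.3 CPM in PBS controls, 89.6, 90.5, and 87.8 after soluble OVA, and 38.6, 49.3, and 54.5 after OVA NP, a change of 0.71 ± 0.07 (SE, adjusted P = 0.000150) after soluble OVA. *Tipin* rose by 0.61 on the log2 scale after OVA NP in spleen, and *Wdhd1*, which ties the helicase to polymerase alpha, by 0.39. All 4 genes were DEGs after either form of OVA in spleen, after soluble OVA in Peyer's patches, and between the forms of OVA in Peyer's patches.

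**Figure D4:**
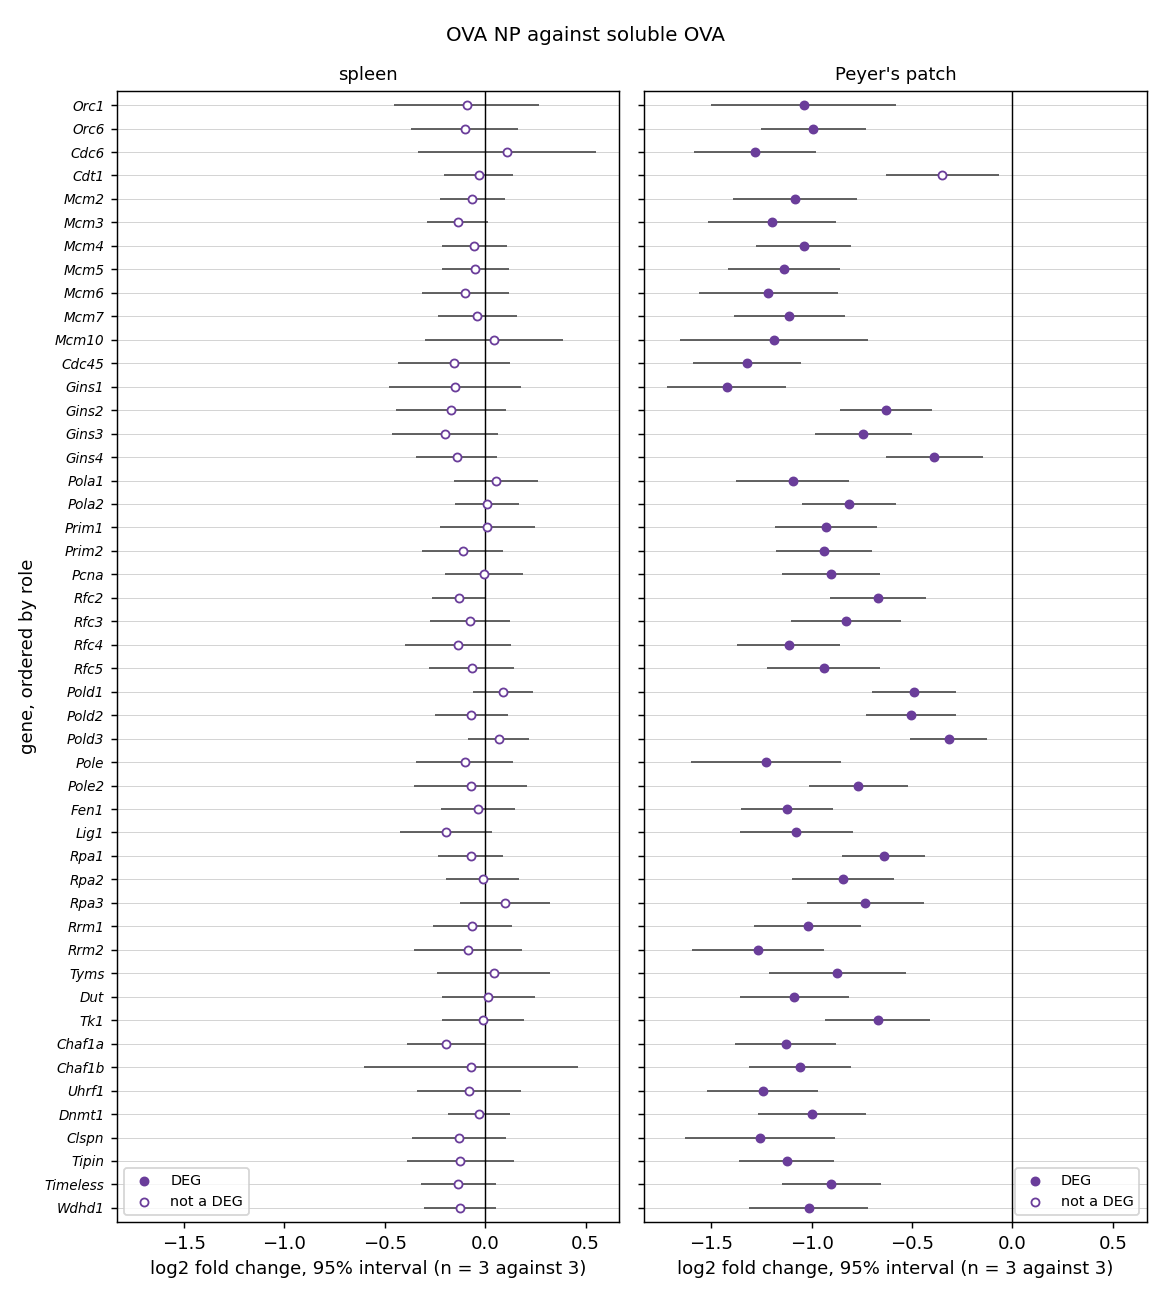
Log2 fold change of OVA NP against soluble OVA with its 95% interval for each of the 48 genes in spleen (left) and Peyer's patch (right), 3 libraries against 3, with filled points for DEGs. In spleen most intervals cross 0, and in Peyer's patch all 48 estimates lie below 0, with *Cdt1* the open point.

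In some groups, most of the 48 genes put the libraries in the same order. In Peyer's patches after OVA NP, replicate 1 held the lowest value of its group for 46 of the 48 genes and replicate 3 the highest for 42. In spleen after OVA NP, replicate 1 was the highest for 41 genes and replicate 3 the lowest for 41. In PBS controls of Peyer's patch, replicate 1 was the highest for 39 genes and replicate 3 the lowest for 37. The order was less shared in the remaining groups, where no replicate was the lowest for more than 34 genes or the highest for more than 32. The median coefficient of variation over the 48 genes was 17.4% and 12.3% in the OVA NP groups of Peyer's patch and spleen, 11.3% in Peyer's patch PBS controls, and 4.79% to 5.77% in the remaining groups. The 48 members are not independent of each other, and a count of DEGs among them is not a count of separate observations.

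Other genes of the same process were followed in lists chosen with earlier results of these data known. Of 39 further replication factors, 21 were higher after OVA NP in spleen and 0 lower, with log2 fold changes from -0.18 for *Mcm9*, which did not pass, to 2.07 for *Pclaf*, a PCNA-binding factor. After soluble OVA, 22 were higher and 1 lower in spleen and 30 were higher in Peyer's patches, and 29 were lower after OVA NP than after soluble OVA there. Of 21 regulators of S phase entry, 16 were higher and 2 lower after OVA NP in spleen. The highest was *E2f7* (1.71), an E2F family repressor, and the lowest was *Cdkn1b* (-0.29), which encodes the inhibitor p27. In Peyer's patches after soluble OVA, 17 regulators were higher and 2 lower, with *Cdkn1b* again the lowest at -1.28. Of 18 genes of replication-coupled repair, 12 were higher after OVA NP in spleen and 16 were higher after soluble OVA in Peyer's patches. Replication-dependent histone genes, whose mRNAs mostly lack poly(A) tails and are poorly captured in poly(A) libraries, gave 5 higher and 0 lower of 23 tested after OVA NP in spleen. Of all tested genes, 8.6% were called higher there, 10.5% after soluble OVA in spleen, and 13.5% after soluble OVA in Peyer's patches. The shares called lower were 6.35%, 6.72%, and 13.9%, in the same order. For OVA NP against soluble OVA in Peyer's patches, 16.3% were called lower.

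Mitosis genes moved in the same comparisons. All 20 were higher after OVA NP and after soluble OVA in spleen and after soluble OVA in Peyer's patches. Of all tested genes, 8.6%, 10.5%, and 13.5% were called higher, in that order. In Peyer's patches, all 20 were lower after OVA NP than after soluble OVA, against 16.3% of all tested genes. The median log2 fold change of the 20 after OVA NP in spleen was 1.33, with *Nuf2* the highest at 1.66 and *Ndc80*, its partner in the kinetochore, the lowest at 0.75. Summed over the 20 genes, spleen levels were 399 to 488 CPM in PBS controls and 1017 to 1432 CPM after OVA NP. Summed over the 48 replication genes, they were 2372 to 2528 CPM and 3280 to 3956 CPM.

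**Figure D5:**
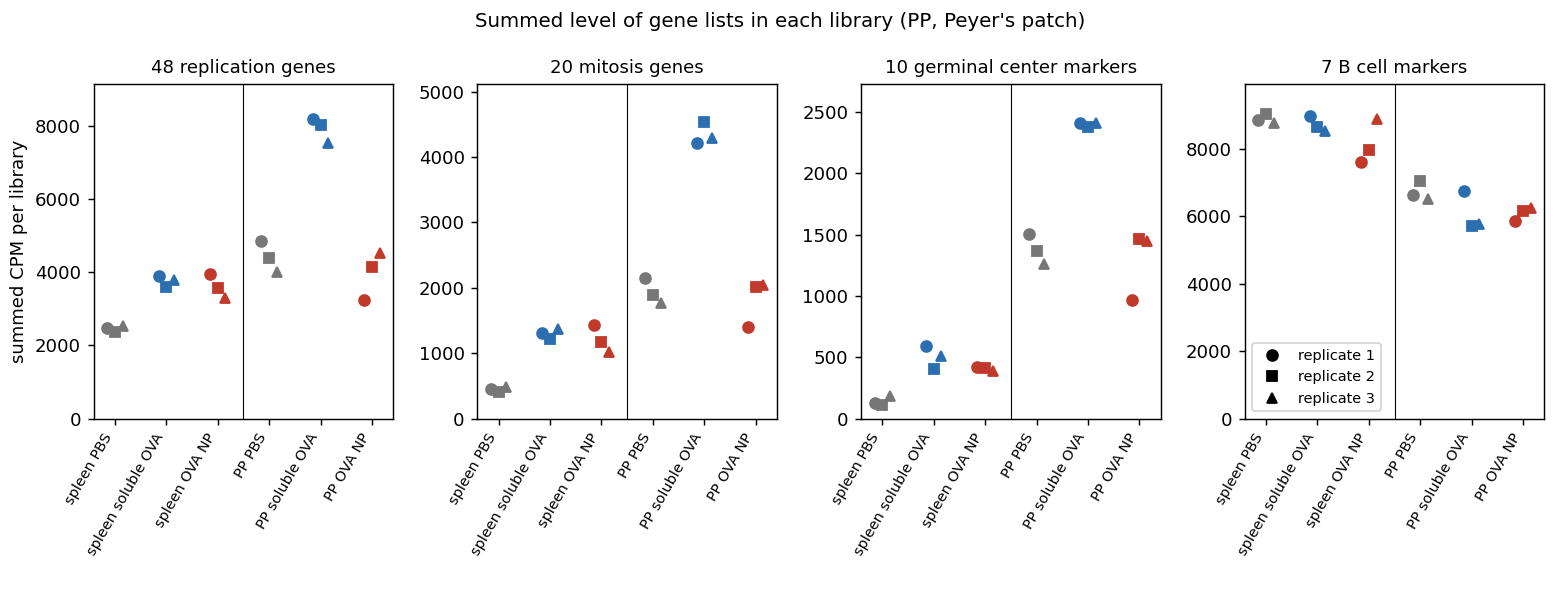
Summed CPM per library (points, shaped by replicate) of the 48 replication genes, 20 mitosis genes, 10 germinal center markers, and 7 B cell markers in PBS (grey), soluble OVA (blue), and OVA NP (red) libraries of spleen and Peyer's patch (PP). The first 3 lists are highest in the Peyer's patch soluble OVA libraries, and the B cell markers vary within 5699 to 9031 CPM.

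Germinal center B cell markers were called in the same direction as the replication genes in both comparisons with PBS in spleen, after soluble OVA in Peyer's patches, between the forms of OVA in Peyer's patches, and between tissues. Of the 10 markers, 9 were tested after OVA NP in spleen and 8 were higher, against 8.6% of all tested genes. The 9 had a median log2 fold change of 2.62, from 0.23 for *Bcl6*, below the cutoff, to 3.24 for *Gcsam*. All 10 were higher after soluble OVA in spleen and 9 after soluble OVA in Peyer's patches, against 10.5% and 13.5% of all tested genes. In Peyer's patches, 9 were lower after OVA NP than after soluble OVA, against 16.3% of all tested genes. In PBS controls all 10 were higher in Peyer's patches than in spleen, against 25.5% of all tested genes, with a median log2 difference of 4.80. After OVA NP in Peyer's patches, 0 of the 10 passed against PBS (median log2 fold change -0.06). The lists differed in other comparisons. In spleen, 1 of the 10 markers was lower after OVA NP than after soluble OVA (median log2 fold change -0.44), against 0.101% of all tested genes and 0 of the 48 replication genes. The effect of OVA NP was lower in Peyer's patches than in spleen for 9 markers, against 3.54% of all tested genes. The effect of soluble OVA was also lower there for 7 markers (median log2 difference -2.40), against 5.07% of all tested genes, whereas 2 replication genes had a higher effect there and 0 a lower one. The summed marker levels in spleen were 108 to 182 CPM in PBS controls, 407 to 591 CPM after soluble OVA, and 387 to 424 CPM after OVA NP. In Peyer's patches they were 1261 to 1505 CPM in PBS controls, 2378 to 2413 CPM after soluble OVA, and 964 to 1464 CPM after OVA NP. None of the 10 was at 0 counts in any library. The 7 B cell markers were called in neither direction after either form of OVA in spleen or after OVA NP in Peyer's patches. After soluble OVA in Peyer's patches, 1 was higher and 2 were lower than in PBS controls, with log2 fold changes from -0.48 for *Cd22* to 0.41 for *Blnk*, against 13.5% and 13.9% of all tested genes. In PBS controls, 5 of the 7 were lower in Peyer's patches than in spleen, against 20.1% of all tested genes. The part of germinal center cells in the result was not tested.

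Markers of other cells moved in some of the same comparisons. Between OVA NP and soluble OVA in Peyer's patches, 5 of 6 dendritic cell markers, 5 of 8 monocyte and macrophage markers, and 4 of 8 T cell markers were higher after OVA NP, against 13.8% of all tested genes. A single marker each of dendritic cells, T cells, B cells, and plasma cells was lower, against 16.3% of all tested genes called lower. In the same comparison, 1 marker each of NK cells and epithelium was higher, as were the 1 erythroid and 1 neutrophil marker tested. Summed dendritic cell markers were 50.02 to 51.6 CPM after soluble OVA and 71.1 to 78.1 CPM after OVA NP, monocyte and macrophage markers 113 to 127 CPM and 170 to 267 CPM, and T cell markers 162 to 183 CPM and 135 to 145 CPM. Mitochondrially encoded genes took 9.08% to 9.80% of counts in Peyer's patches after OVA NP, 4.97% to 6.02% after soluble OVA, 5.41% to 7.67% in PBS controls, and 2.82% to 3.41% in spleen. Without these genes, 48 members were lower after OVA NP than after soluble OVA in Peyer's patches. In spleen after OVA NP, 2 of 6 dendritic cell markers were lower, against 6.35% of all tested genes. There, 3 of 6 plasma cell markers and 0 of 6 erythroid markers tested were higher, against 8.6% of all tested genes. Spleen soluble OVA libraries had 3 plasma cell markers, 1 dendritic cell marker, and 2 of 5 tested erythroid markers higher than PBS. Of all tested genes, 10.5% were called higher there. These libraries had 1 plasma cell, 1 dendritic cell, and 2 monocyte and macrophage markers lower, against 6.72% of all tested genes called lower. After soluble OVA in Peyer's patches, 2 of 6 plasma cell markers were higher than in PBS controls. A single marker of 6 plasma cell, 6 dendritic cell, and 8 monocyte and macrophage markers each was lower. Among all tested genes, 13.5% were called higher and 13.9% lower in this comparison. Between tissues in PBS controls, all 5 epithelial markers, all 5 T cell markers tested, and 5 of 6 plasma cell markers were higher in Peyer's patches. So were 3 of 6 dendritic cell, 3 of 5 NK cell, and 1 of 8 monocyte and macrophage markers, and 3 monocyte and macrophage markers were lower. All 5 erythroid markers tested and 4 of 5 neutrophil markers tested were also lower in Peyer's patches. Among all tested genes, 25.5% were called higher and 20.1% lower between tissues. The part of these cells in the results was not tested.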

How the data were processed

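B cell RNA was sequenced from poly(A) libraries of 18 samples, and groups were taken from the sample labels. Per the labels and the study's methods, the authors used cutadapt 2.3 to trim reads, STAR 2.7.8a to align them to GRCm38, and RSEM 1.3.3 to estimate counts per gene. The deposited values are expected counts without normalization. All were whole numbers, so nothing was rounded. The reference genome is of a different strain than the BALB/cJ mice. The strand setting was not given in the sources used here.

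Genes were filtered by filterByExpr (minimum count 10, minimum total 15), scaled by TMM, and tested with edgeR 4.0.16 in R 4.3.3 by the robust quasi-likelihood F test on the 6 libraries of each comparison, and P was adjusted by Benjamini-Hochberg across every gene tested. Tissue differences in a treatment effect were tested as an interaction over 12 libraries at an adjusted P under 0.05. SEs and 95% intervals came from the same model. CPM levels used TMM factors of all 18 libraries. Levels per kb used merged exons of GENCODE M21 (GRCm38), which also gave positions and exon overlaps. Promoters came from RefSeq (GRCm38.p6). The edgeR and DESeq2 fits of some of the comparisons were also run on simulated counts. The promoter, exon overlap, and marker steps were not.

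The genes with values in every library were a fixed 28 that cover each role, plus the members with the highest and lowest log2 fold change in each comparison, and others were added where a count or exception called for them. The 48 members and all lists were chosen with earlier results of these data known. Each P weighs a difference between groups against the spread between libraries within groups, which had 3 libraries each. That spread was estimated over all groups of the fit, with information shared across genes. Alternatives were DESeq2 1.42.0 (the authors' tool), its size factors in edgeR, a minimum of 10 counts in every library, no filter on counts, removal of mitochondrially encoded genes, a replicate block, no fold-change cutoff, all 9 libraries of a tissue, and leaving out each library. For the comparison between tissues, all 18 libraries took the place of the 9 of a tissue. Replicate numbers are stated nowhere to mark shared mice or days. The residuals of same-numbered libraries were not correlated above 0.1 in every pair of any comparison between groups, so the main tests use no block. Across tissues, this was checked for PBS controls only.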

Additional observations from a re-analysis of the deposited data

Results flagged for a closer look

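For 28 of the 48 replication genes, the effect of OVA NP differed between Peyer's patches and spleen in a test of the interaction of tissue and treatment (edgeR, adjusted P under 0.05, 12 libraries, 3 per group). All differences, given as the log2 fold change against PBS in Peyer's patches minus that in spleen, were negative. Among all tested genes, 3.54% were called in that direction. The count of 28 ran from 11 to 32 when single libraries were left out. The lowest differences were those of *Uhrf1* (-1.46), *Clspn* (-1.42), *Rrm2* (-1.41), *Mcm10* (-1.36), and *Cdc45* (-1.35). In the helicase ring they were -0.97 for *Mcm5*, -0.97 for *Mcm6*, -0.92 for *Mcm3*, -0.81 for *Mcm2*, -0.72 for *Mcm7*, and -0.70 for *Mcm4*. The GINS subunit *Gins2* was at -0.67. Among polymerase and primase genes they were -0.88 for *Pola1*, -0.73 for *Pole2*, -0.69 for *Prim1*, and -0.67 for *Prim2*. Clamp and loader genes were at -0.92 for *Rfc4*, -0.76 for *Rfc5*, -0.74 for *Pcna*, and -0.59 for *Rfc3*. The remaining values were -0.95 for *Tyms*, -0.94 for *Lig1*, -0.86 for *Tipin*, -0.83 for *Chaf1a*, -0.82 for *Fen1*, -0.74 for *Rrm1*, -0.60 for *Rpa2*, and -0.57 for *Dnmt1*.

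For soluble OVA, 2 genes differed between the tissues by the same test, *Pola2* (0.39) and *Pold1* (0.35), both with the higher estimate in Peyer's patches. Among all tested genes, 1.77% were called higher. The count of 2 ran from 0 to 5 when single libraries were left out. The interactions for both treatments use the same 6 PBS libraries.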

How the results depend on the processing

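The counts of replication genes called between groups stayed within 1.5 times the main count under DESeq2, DESeq2's size factors in edgeR, a minimum of 10 counts in every library, no filter on counts, removal of mitochondrially encoded genes, the replicate block, no fold-change cutoff, and the fit to all 9 libraries of a tissue. They ran from 39 to 44 for OVA NP against PBS in spleen, 43 to 46 for soluble OVA in spleen, 45 to 46 for soluble OVA in Peyer's patches, 45 to 48 for OVA NP against soluble OVA in Peyer's patches, and 41 to 45 between tissues. Between tissues, all 18 libraries were fitted in place of the 9 of a tissue. Both counts of 0 stayed at 0 under these settings. With single libraries left out, the ranges were 34 to 42, 41 to 44, 45 to 45, 45 to 48, and 40 to 45, and 0 to 0 for both counts of 0. No called gene reversed its direction under any of these alternatives.

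The tissue differences moved more, and the cause was not tested. For OVA NP, the 28 genes became 14 with the replicate block and 11 to 32 with single libraries left out, and were 23 to 35 under the other settings. For soluble OVA, the 2 genes became 4 under DESeq2, 4 with its size factors, 6 with no count filter, 1 with the replicate block, and 0 to 5 with single libraries left out. In spleen and Peyer's patch, the block for replicate number left 39 and 45 genes higher after OVA NP and soluble OVA, respectively, against PBS. Equal numbers are not stated to pair libraries, and same-numbered libraries of the same OVA treatment in both tissues were not checked for it. Whether the fit with or without the block suits the tissue differences was not tested.

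Depth did not limit the members, which had at least 96 counts in every library. With 3 libraries per group, the median SE of a log2 fold change was 0.13 for OVA NP against PBS in Peyer's patches.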

Other observations

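In Peyer's patches, 3 genes of the regulator and repair lists were called against the direction of the replication genes. Of 21 regulators of S phase entry, 2 were higher after OVA NP than after soluble OVA and 17 were lower. Of 18 repair genes, 1 was higher and 16 were lower. Both shares called higher were below the 13.8% of all tested genes. After OVA NP, *Cdkn1b* and *Rb1*, both brakes on S phase entry, were higher than after soluble OVA, with log2 fold changes of 1.24 and 0.80, and the checkpoint kinase gene *Atr* was higher by 0.54, whereas 16 of the 18 repair genes were lower. These 3 genes were named after their values were seen. In spleen after OVA NP, *Cdkn1b* (-0.29) and *Rbl2* (-0.26), which encodes a pocket protein, were lower than in PBS controls. They were 2 of the 21 regulators, a share near the 6.35% of all tested genes called lower, and 16 regulators were higher.

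Replication-dependent histone genes gave fewer calls between treatments than between tissues. In PBS controls, 21 of 33 tested were higher in Peyer's patches than in spleen and 1 was lower, against 25.5% and 20.1% of all tested genes. In spleen, 5 of 23 were higher after OVA NP than in PBS controls, against 8.6% of all tested genes. Of those tested, 3 of 24 were higher after soluble OVA in spleen, near the 10.5% of all tested genes. In Peyer's patches, 3 were higher and 2 lower of 47 after soluble OVA, below the 13.5% and 13.9% of all tested genes. There, 5 of 46 were lower and 1 higher after OVA NP than after soluble OVA, below the 16.3% and 13.8% of all tested genes. Summed levels of the histone genes were 129 to 161 CPM in spleen PBS controls, 249 to 313 CPM after soluble OVA, and 232 to 281 CPM after OVA NP. In Peyer's patches they were 410.2 to 524 CPM, 542 to 683 CPM, and 291 to 449.5 CPM.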
